A study of Mus musculus with 4 samples.

Results

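Neurotransmitter receptors are the membrane proteins through which neurons sense glutamate, GABA, glycine, acetylcholine, serotonin and dopamine. Their genes were taken as the spots whose platform symbol belongs to an ionotropic or metabotropic glutamate receptor, a GABA-A or GABA-B receptor, a glycine receptor, a nicotinic or muscarinic acetylcholine receptor, or a serotonin or dopamine receptor, and which had a value on all 4 arrays. This gave 25 genes with 37 spots. The platform annotation holds 85 such genes with 152 spots, and 11791 genes of all kinds had a value on all 4 arrays. One further symbol with a matching name, Grid2ip, encodes a protein that binds a receptor and is no receptor itself. It had no spot with values on all 4 arrays.

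RNA came from the telencephalon of mouse embryos of stage E12.5, either 152F7 transgenic or wild type and all on the FVB strain. In 152F7 mice a human segment from the Down syndrome region, with the kinase gene DYRK1A, was inserted as a yeast artificial chromosome, which wild-type mice lack. The series text describes pooled samples and dependent measurements, so each genotype stands for 1 RNA pool. The sources used here give neither the number nor the sex of the embryos in a pool. Each of 4 two-colour arrays carried both pools, with 152F7 in Cy5 on 2 arrays and wild type in Cy5 on the other 2. With 1 pool per genotype no test between genotypes exists, and an SD over the 4 arrays holds only dye orientation, labelling and hybridisation.

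The deposited values are log ratios, read here as log2. They were taken as running the same way on every array, because a gene's first 2 spots then correlated better across genes than with one orientation turned (Pearson 0.42 against 0.097 over 4352 genes). This reading was chosen from the values. Over all spots opposite orientations had Pearson correlations of -0.66 to -0.60, and values with one orientation turned are given as an alternative. The genotype in the numerator stays unknown, so "higher" and "lower" below refer to the numerator pool relative to the denominator pool. The spots with values numbered 23796 to 28942 per array, array medians lay between -0.007 and 0.007, and the median of all genes was 0.0021. Xist had -3.38 ± 0.11 and the Y-linked Eif2s3y 2.10 ± 0.33 (SD, n = 4 arrays), each with the same sign on all 4 arrays, so sex markers also differed between the pools. With one orientation turned Xist would be at -0.077. Dyrk1a, the mouse gene, had a mean of 0.028 ± 0.13. Whether its signal includes the human DYRK1A of the inserted segment was not tested. Values on all arrays were present for 11 telencephalon genes, among them the cortical factors Emx1, Emx2 and Tbr1 and the ventral factors Dlx1, Dlx2 and Nkx2-1.

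Ionotropic receptors are ion channels built from several subunits, and the subunit mix sets their kinetics and permeability. AMPA receptors carry most fast excitation, kainate receptors modulate it, and NMDA receptors pass calcium when glutamate and depolarisation coincide. GABA-A and glycine receptors are chloride channels that inhibit mature neurons, but in embryonic neurons chloride is high and their opening can depolarise the cell. Metabotropic, muscarinic, GABA-B, dopamine and most serotonin receptors act through G proteins. In the embryonic telencephalon several of these receptors are present before most synapses form, on progenitors and migrating neurons.

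The 2 receptor genes that passed the 1.1-fold rule described below were Grik5 and Grin2d, and their promoters are shown together with that of Gria2, the only member promoter with an RE1 core. RE1 is the element bound by the repressor REST, which keeps neuronal genes silent outside neurons. The sequences are from RefSeq on GRCm38.p6 and run 5′ to 3′ on the gene's strand, from 250 bases before to 50 bases after the annotated start. All 3 lie on the minus strand, Grik5 at chr7:25072320-25072619, Grin2d at chr7:45866632-45866931 and Gria2 at chr3:80802786-80803085. Capitals mark GC boxes (GGGCGG) in Grik5 and the RE1 core in Gria2, which stands there as its reverse complement.
Grik5: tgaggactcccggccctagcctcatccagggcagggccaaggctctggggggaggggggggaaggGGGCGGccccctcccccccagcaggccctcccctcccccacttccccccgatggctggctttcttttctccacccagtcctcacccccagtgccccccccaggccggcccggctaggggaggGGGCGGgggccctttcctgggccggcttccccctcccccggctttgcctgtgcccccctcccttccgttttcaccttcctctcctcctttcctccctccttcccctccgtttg
Grin2d: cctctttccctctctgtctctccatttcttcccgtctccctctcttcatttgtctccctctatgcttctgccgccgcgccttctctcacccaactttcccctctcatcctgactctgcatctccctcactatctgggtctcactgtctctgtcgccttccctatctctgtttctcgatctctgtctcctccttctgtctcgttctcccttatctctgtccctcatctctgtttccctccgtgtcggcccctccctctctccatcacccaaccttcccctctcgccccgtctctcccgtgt
Gria2: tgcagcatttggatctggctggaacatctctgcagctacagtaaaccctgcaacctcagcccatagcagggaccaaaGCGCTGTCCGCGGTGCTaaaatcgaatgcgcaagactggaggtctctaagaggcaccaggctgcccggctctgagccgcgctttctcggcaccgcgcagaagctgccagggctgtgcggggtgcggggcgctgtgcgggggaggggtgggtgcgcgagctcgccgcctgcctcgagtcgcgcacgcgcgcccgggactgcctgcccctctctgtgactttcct
Promoters were found for 22 of the 25 members, with 25 sequences in all, and each motif was searched on both strands. The RE1 core was taken as AGCACC and GGACAGCGC with any 2 bases between them, a form chosen after the Gria2 sequence had been seen, and it overlaps the right part GGACAGCGC, found in 0.405% of all promoters. It was found in 1 of the 25 member promoters and in 5 of all 32851 promoters (0.0152%). The left part TTCAGCACC was in no member promoter and in 0.371% of all promoters. The GC box stood in 13 of the 25 member promoters and in 35.7% of all promoters. The TATA box (TATAAA) stood in 3 of the 25, those of Gabra3 and Gabrb2, and in 13.6% of all. The palindromic core of the NRF-1 site was in none of the 25 and in 0.971% of all. A match describes letters only.

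Receptor genes had values less often than genes as a whole. A spot with values on all 4 arrays was present for 25 of the 85 receptor genes (29.4%), against 61.8% of all 19087 genes with a named spot. Of the rest, 46 had values on 1 to 3 arrays of their best spot and 14 had none. Ion channel receptors were measured in 21 of 54 genes and G protein-coupled receptors in 4 of 31. All 4 AMPA receptor genes and both GABA-B receptor genes were measured, but none of 7 metabotropic glutamate receptor genes and none of 5 muscarinic receptor genes. Among 14 serotonin receptor genes only Htr2c was measured on all arrays, and among 5 dopamine receptor genes only Drd4.

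**Figure D1:**
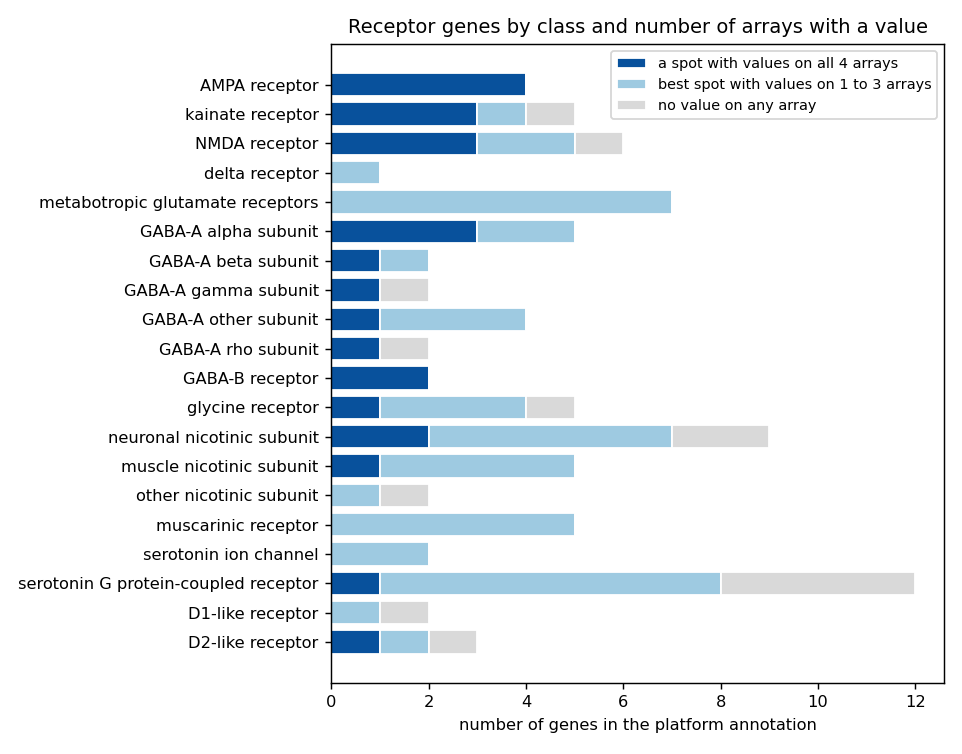
Receptor genes of the platform annotation by class (vertical axis) and their number (horizontal axis), split by how many arrays gave a value for the gene's best spot. The 4 AMPA receptor genes have values on all 4 arrays, and none of the 7 metabotropic glutamate receptor genes does.

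The gaps differed between dye orientations. Of the 152 receptor spots, 66 and 53 had a value on the arrays with 152F7 in Cy5, against 90 and 84 on those with wild type in Cy5. These are 43.4% and 34.9% of the receptor spots with 152F7 in Cy5, against 59.2% and 55.3% with wild type in Cy5. Over all named spots the shares were 69.3% and 61.8% with 152F7 in Cy5, against 72.4% and 69.0% with wild type in Cy5, a smaller gap. Spots of synaptic vesicle and active zone genes had values in 78.2% and 66.9% with 152F7 in Cy5, against 76.8% and 75.4% with wild type in Cy5. Spots of voltage-gated and potassium channel genes had values in 56.7% and 48.5% with 152F7 in Cy5, against 62.9% and 53.6% with wild type in Cy5. The sources used here do not name the filter behind a missing value, and intensities were not used, so the part of signal or dye in these gaps was not tested.

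The receptor genes as a group lay close to the genes as a whole. A gene was counted where its mean was at least 1.1-fold (0.14 on the log2 scale) and had the same sign on all 4 arrays. At this rule 1 of 25 members was higher, Grik5, where 3.42% of all genes were, and 1 was lower, Grin2d, where 1.45% of all genes were. These counts are near the background share. At a looser limit of 0.070 on the log2 scale 3 were higher and 2 lower (background 8.94% and 5.91%). At 1.2-fold no member passed in either direction (background 0.483% higher and 0.237% lower), and at 1.5-fold none did (0.0763% and 0.00848%). The median of the 25 genes was 0.030 ± 0.035 (SD of the 4 array medians), with array medians of 0.069 and 0.017 for 152F7 in Cy5 and -0.013 and 0.005 for wild type in Cy5. The median was thus smaller than the spread between arrays. Of the 25 genes 17 had a mean above 0 (68.0%, against 51.5% of all genes), and 6 had a mean larger than their own SD over arrays (24.5% of all genes). With one orientation turned 15 were above 0. The share of all genes above 0 was not counted in that reading, where their median was 0.0145.

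**Figure D2:**
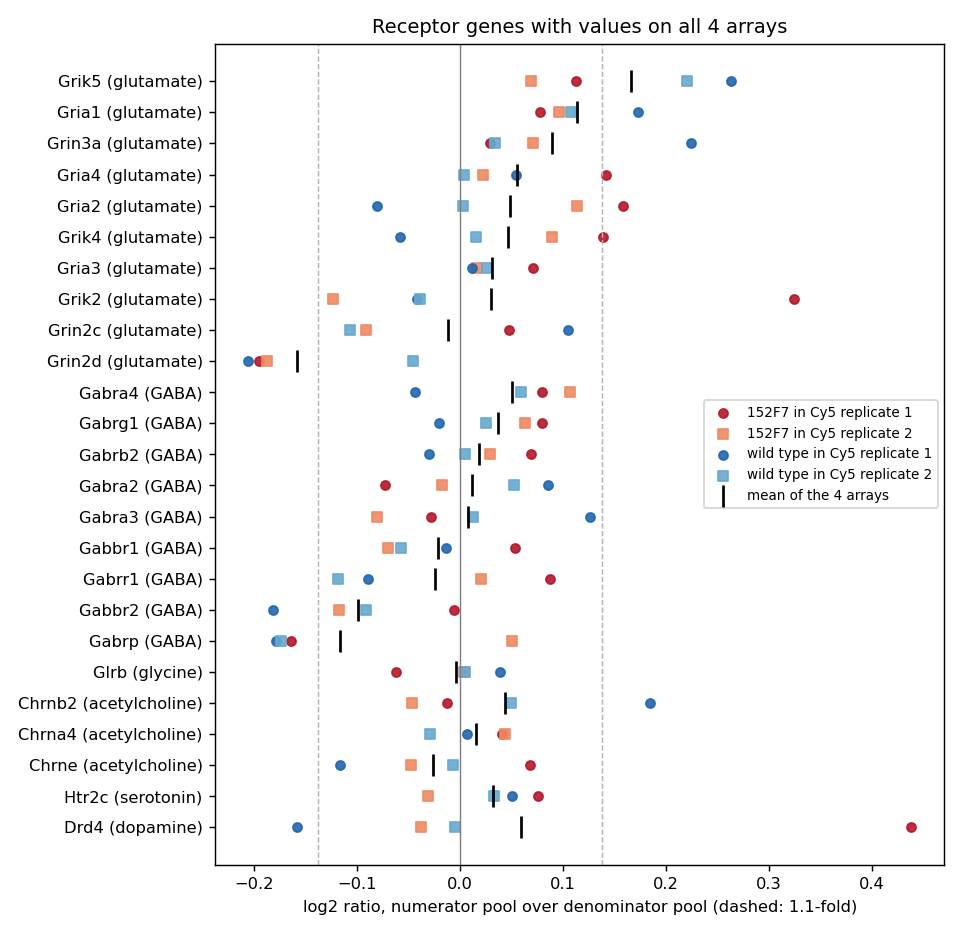
Log2 ratios of the numerator over the denominator pool (horizontal axis) for the 25 receptor genes, grouped by transmitter (vertical axis). Points are the 4 arrays, black bars their mean and dashed lines 1.1-fold in either direction. Only the means of Grik5 and Grin2d lie outside the dashed lines.

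Glutamate receptors held both called genes and all 5 members that were above 0 on all 4 arrays. Those 5 were Grik5, Gria1, Grin3a, Gria4 and Gria3, with Gria1 so only after averaging of its spots. Over all genes 12.8% were above 0 on every array. The 10 genes had a median of 0.048 ± 0.036, and 8 of them had a mean above 0. In the reading with one orientation turned their median would be 0.0010.

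AMPA receptor subunits were above 0 in the mean in all 4 genes, none of them past the 1.1-fold rule. Gria1 encodes the subunit GluA1. It had 0.078 and 0.097 with 152F7 in Cy5, against 0.17 and 0.11 with wild type in Cy5, for a mean of 0.11 ± 0.041. All 4 arrays were on one side of 0 after averaging of its 2 spots. The spots differed, however, with means of 0.033 and 0.19, so the gene's value rests mainly on one of them. The spot at 0.033 had -0.0020 on replicate 2 of wild type in Cy5. Gria2 encodes GluA2, the subunit that makes the channel nearly closed to calcium. It had 0.16 and 0.11 with 152F7 in Cy5, against -0.080 and 0.0030 with wild type in Cy5, for a mean of 0.049 ± 0.11. The arrays with 152F7 in Cy5 lay above both others, so the spread follows the dye orientation, and the promoter with the RE1 core goes with a mean smaller than its SD. Gria3 and Gria4, which encode GluA3 and GluA4, had means of 0.032 ± 0.027 and 0.056 ± 0.061, above 0 on all 4 arrays. Each rests on 1 spot with values on all arrays, of 3 platform spots for Gria3 and 5 for Gria4. With a value required on at least 1 array of each orientation, their means were 0.015 and 0.0056.

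Kainate receptor subunits included the highest receptor gene. Grik5 encodes GluK5, a subunit of high affinity that forms channels only together with other kainate subunits. It had 0.11 and 0.069 with 152F7 in Cy5, against 0.26 and 0.22 with wild type in Cy5. All 4 arrays were above 0 and the orientations did not overlap. The mean was 0.17 ± 0.090, a ratio of 1.12-fold from 1 spot, and 97.7% of all genes had a lower mean. Grik4, for GluK4, the other subunit of that kind, had 0.046 ± 0.086. Grik2 encodes GluK2, which can form channels alone. It had 0.32 and -0.12 with 152F7 in Cy5, against -0.041 and -0.039 with wild type in Cy5, so a single array lay above 0. The mean of Grik2 was 0.030 ± 0.20, and -0.082 without replicate 1 of 152F7 in Cy5. Grik1, whose human orthologue lies on the Down syndrome chromosome outside the 152F7 segment, had values on 3 arrays only, at 0.12 with 152F7 in Cy5, against 0.0070 and 0.026 with wild type in Cy5.

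NMDA receptor subunits included the lowest receptor gene. Grin2d encodes GluN2D, a subunit that is prominent in the embryonic brain and gives slowly closing channels. It had -0.20 and -0.19 with 152F7 in Cy5, against -0.21 and -0.045 with wild type in Cy5. All 4 arrays were below 0, and 3 of them were close together. The mean was -0.16 ± 0.076, 1.12-fold lower from 1 spot, and 1.69% of all genes had a lower mean. Without replicate 1 of wild type in Cy5 and with orientations weighted equally, as in all such values here, the mean of Grin2d was -0.12 and did not reach 1.1-fold, while the plain mean of the 3 arrays was -0.14 and did. Grin3a encodes GluN3A, which lowers the calcium passage of NMDA receptors and is common in young neurons. It had 0.029 and 0.071 with 152F7 in Cy5, against 0.22 and 0.034 with wild type in Cy5, for a mean of 0.090 ± 0.092, and 1 array stood above the rest. Grin2c, for GluN2C, had -0.011 ± 0.10 with a replicate of each sign in both orientations. The obligatory subunit gene Grin1 had no spot with that symbol alone in the platform annotation, so it could not be analysed here. Grin2b had values on all arrays at none of its 4 spots.

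GABA-A receptor subunits showed no gene past the 1.1-fold rule in either direction, and their 7 means ran from -0.12 to 0.051 around a median of 0.012 ± 0.041. The alpha subunits, which help shape the GABA and benzodiazepine sites, were close to 0. Gabra4 had 0.051 ± 0.066, Gabra2 0.012 ± 0.071 over 3 spots and Gabra3 0.0078 ± 0.088. For Gabra2 and Gabra3 both arrays with 152F7 in Cy5 lay below 0 and both with wild type in Cy5 above it, so their means near 0 come from orientations that oppose each other. For Gabra2 this held after averaging of its 3 spots and not in each of them. The Gabra2 spot with a mean of 0.047 had -0.091 and 0.091 with 152F7 in Cy5. The spot with a mean of -0.0068 had 0.082 and -0.018 with wild type in Cy5. Gabrb2, a beta subunit, had 0.018 ± 0.042, with spots at -0.034 and 0.071. Gabrr1 encodes a rho subunit best known from the retina. Its values were 0.088 and 0.021 with 152F7 in Cy5, against -0.089 and -0.12 with wild type in Cy5, for a mean of -0.024 ± 0.096.

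Gabrp, the pi subunit known mainly from tissues outside the brain, had the lowest mean among GABA receptor genes. It had -0.16 and 0.051 with 152F7 in Cy5, against -0.18 and -0.17 with wild type in Cy5. The mean of Gabrp was -0.12 ± 0.11, and a single array above 0 kept it from a consistent sign. Without that array, replicate 2 of 152F7 in Cy5, the mean of Gabrp was -0.17 and it passed the 1.1-fold rule.

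Gabrg1, a gamma subunit, measured the precision of single spots, since 7 of its 11 spots carried the same transcript accession and had values on all arrays. The 7 spot means of Gabrg1 ran from -0.064 to 0.082 with an SD of 0.051, and 6 of them were above 0. Within single arrays the SD over the 7 spots averaged 0.068. The mean of Gabrg1 over spots and arrays was 0.037 ± 0.045 (SD over arrays). Across the 28 genes of the table with at least 7 such spots, the SD of spot means ran from 0.0097 to 0.058, with a median of 0.029. Of the 25 members 19 rest on 1 spot, and in 13 of these the mean was smaller in size than the SD of the Gabrg1 spot means, which is near the top of that range. At the median SD of the 28 genes it was 6 of the 19.

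**Figure D3:**
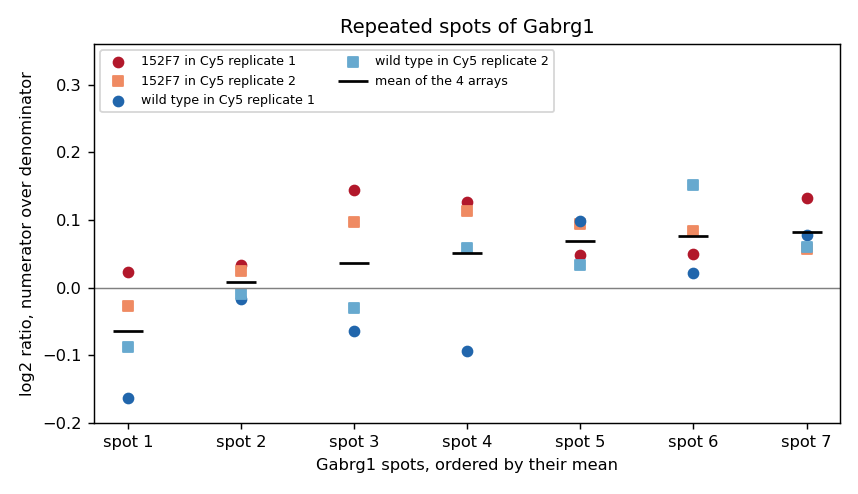
Log2 ratios (vertical axis) of the 7 Gabrg1 spots with values on all 4 arrays, ordered by their mean (horizontal axis). Points are the arrays and bars the spot means, which run from -0.064 to 0.082 for one transcript.

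GABA-B receptors signal through G proteins as a pair of different subunits, and both subunit genes had means below 0. Gabbr2, whose protein couples to the G protein, had -0.0060 and -0.12 with 152F7 in Cy5, against -0.18 and -0.091 with wild type in Cy5. After averaging of its 2 spots all 4 arrays were below 0, which held for 9.86% of all genes. The mean of Gabbr2 was -0.099 ± 0.073, with spots at -0.13 and -0.072. The spot at -0.072 split by orientation, at 0.10 and 0.016 with 152F7 in Cy5, against -0.23 and -0.18 with wild type in Cy5. Only the other spot was below 0 on every array. Gabbr1, whose protein binds GABA, had -0.022 ± 0.056 with 1 array above 0. A further Gabbr1 spot, with values on 3 arrays, had -0.10 with 152F7 in Cy5, against 0.11 and 0.21 with wild type in Cy5. With that spot included the mean of Gabbr1 was -0.0049. Neither gene passed the 1.1-fold rule.

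The other transmitters were represented by 6 genes, none past the rule. Glrb, the glycine receptor subunit that anchors the channel to gephyrin, had -0.0035 ± 0.042. Chrnb2 and Chrna4 encode the partners of the most common nicotinic receptor of the brain. Chrnb2 had -0.012 and -0.046 with 152F7 in Cy5, against 0.18 and 0.050 with wild type in Cy5, for a mean of 0.044 ± 0.10. Its signs thus split by orientation. Chrna4 had 0.016 ± 0.034 from 1 spot, with 3 arrays above 0. Another Chrna4 spot had values on 3 arrays, at -0.17 and -0.11 with 152F7 in Cy5, against 0.31 with wild type in Cy5. Chrne, the nicotinic subunit of adult muscle, had -0.026 ± 0.077.

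Htr2c, a serotonin receptor that activates phospholipase C, had 0.032 ± 0.046 with 3 arrays above 0. Drd4, a dopamine receptor that lowers cyclic AMP, had the widest spread of all members. Its values were 0.44 and -0.038 with 152F7 in Cy5, against -0.16 and -0.0050 with wild type in Cy5. The mean of Drd4 was 0.059 ± 0.26, and -0.060 without replicate 1 of 152F7 in Cy5. On that array 3 of the 37 member spots, those of Drd4, Grik2 and 1 of Gabbr2, lay more than 0.25 from the median of the other arrays, and 0 did on each of the other 3 arrays. Over all named spots such distances made up 13.0% on that array and 10.6% to 12.1% on the others.

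The mean and the orientation difference of a gene were of like size. Among the 25 members the median size of the mean was 0.037 and that of the difference between orientations, divided by 2, was also 0.037, against 0.039 and 0.048 over all genes. If the values were Cy5 over Cy3, the mean with one orientation turned would be 152F7 over wild type. In the reading used here it is the orientation difference divided by 2, and no ratio between genotypes. Xist had -3.45 with 152F7 in Cy5, against -3.30 with wild type in Cy5, and Eif2s3y had 2.38 against 1.82. Turned, these sex markers would be at -0.077 and 0.28. Read as Cy5 over Cy3, 0 of 25 members would pass 1.1-fold in either direction, where 4.49% of all genes would be higher and 2.39% lower. The members furthest from 0 would then be Drd4 at 0.14, Gria2 at 0.087 and Gabrr1 at 0.079, while Grik5 would be at -0.075 and Grin2d at -0.033.

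**Figure D4:**
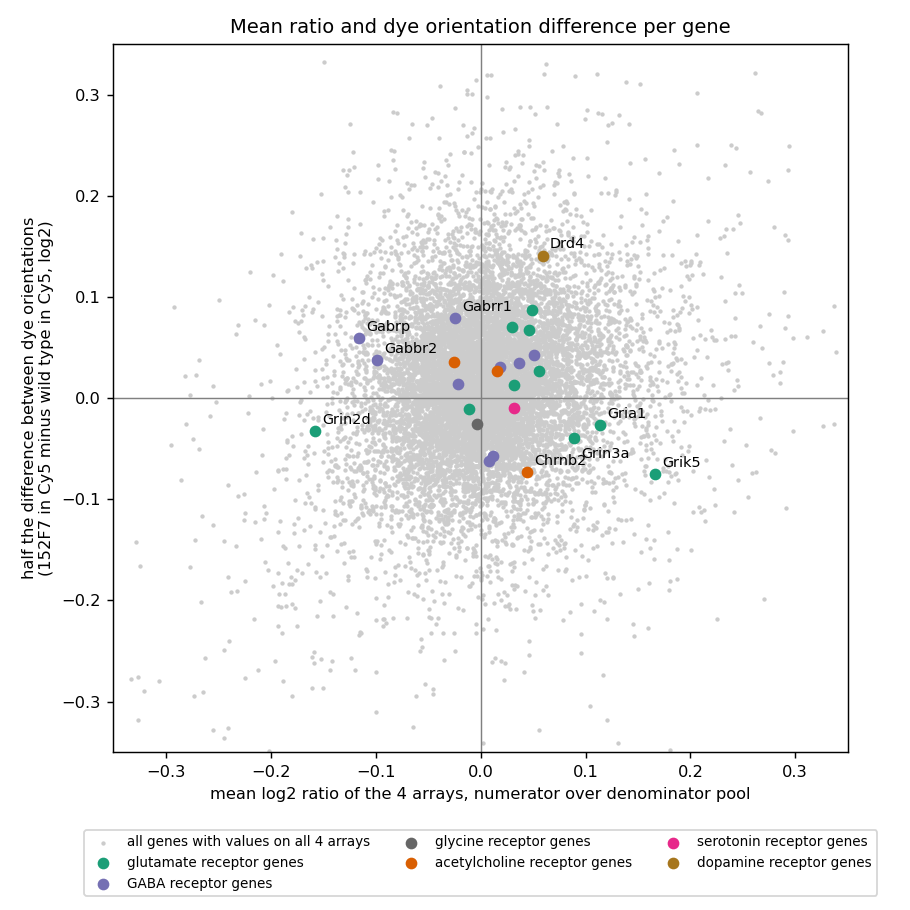
Mean log2 ratio of the 4 arrays (horizontal axis) against the difference between dye orientations divided by 2 (vertical axis, 152F7 in Cy5 minus wild type in Cy5) for all genes (grey) and the 25 receptor genes (coloured by transmitter). Both axes stop at 0.35, which leaves out 58 genes and no receptor gene. The receptor genes lie within the cloud of all genes, with Grik5 and Grin2d furthest to the right and left.

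With a value required on at least 1 array of each orientation, 20 more receptor genes entered, whose means ran from -0.45 to 0.067 around a median of 0.00012. Of these 20 genes 0 were higher at 1.1-fold (background 2.63%) and 1 was lower (background 1.53%). That gene was Grm2, a presynaptic metabotropic glutamate receptor, at -0.90 with 152F7 in Cy5, against -0.0080 with wild type in Cy5, from 1 array each. Values so far apart give no level for Grm2. Grin2b, for GluN2B, had -0.55 and 0.12 with 152F7 in Cy5, against 0.034 with wild type in Cy5, so its 3 values do not share a sign. In this wider set the median was 0.0063 over all 45 receptor genes and -0.0040 over the GABA receptor genes. Gabrg1 moved to -0.032 there, through 1 spot of another accession at -1.50 with 152F7 in Cy5, against 0.020 with wild type in Cy5, from 1 array each.

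Genes that supply or clear the transmitters were described by the same rule, from lists chosen with earlier results of these data known. Over all genes this rule called 3.42% higher and 1.45% lower, the background for the counts in all lists below. Of 9 measured genes for GABA and glycine, 2 were higher and 0 lower. Slc6a13, a GABA transporter found in the meninges, had 0.19 ± 0.059 over 2 spots. Slc12a5 encodes the chloride transporter that turns GABA from a depolarising into an inhibiting transmitter. It had 0.061 and 0.20 with 152F7 in Cy5, against 0.17 and 0.14 with wild type in Cy5, for a mean of 0.14 ± 0.059. All 4 arrays of Slc12a5 were above 0. The median of that list split by orientation, at 0.15 and 0.20 with 152F7 in Cy5, against -0.11 and -0.11 with wild type in Cy5. Among its genes Gad1 and Gad2, which make GABA, had means of 0.025 ± 0.16 and -0.11 ± 0.16, and Slc32a1, which loads it into vesicles, 0.074 ± 0.26. With one orientation turned these would be 0.14, 0.11 and 0.22.

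Of 10 measured genes of glutamate supply and uptake and 9 of monoamine supply and breakdown, 0 passed in either direction, with medians of 0.012 ± 0.056 and -0.0070 ± 0.077. No gene of acetylcholine supply and breakdown, of 7 on the list, had values on all arrays. Of 35 receptor auxiliary and scaffold genes 1 was higher and 0 lower, with a median of 0.0080 ± 0.024. The higher gene was Agrn, which encodes agrin, the organiser of acetylcholine receptor clusters at the neuromuscular junction, at 0.21 ± 0.051. Of 14 receptors for other transmitters and peptides 0 passed in either direction (median 0.014 ± 0.032).

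Set beside the most similar gene groups, the receptors did not stand apart. Voltage-gated and potassium channel genes had a median of 0.020 ± 0.020 over 51 genes, with 5 higher and 0 lower at 1.1-fold. Synaptic vesicle and active zone genes had 0.017 ± 0.021 over 56 genes, with 3 higher and 2 lower. The 3 medians differ by less than the SD of the receptor median between arrays. The groups differed more in coverage, with 29.4% of receptor genes, 44.7% of channel genes and 77.8% of vesicle genes measured on all arrays.

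Lists of cell type markers, chosen with earlier results of these data known, differed in how far they lay from 0. Of 14 neuronal markers 2 were higher and 0 lower, with a median of 0.053 ± 0.035. The higher genes were the neurofilament genes Nefm and Nefl at 0.33 ± 0.085 and 0.29 ± 0.11. Of 11 telencephalon genes 1 was higher, Lhx2 at 0.28 ± 0.12, and 0 lower (median 0.043 ± 0.061). Of 15 measured lens and eye genes 14 were higher (median 0.50 ± 0.072), led by the crystallin genes Cryba1, Crygf, Cryaa and Cryge at 0.87 to 1.21. Of 15 genes of mesenchyme and meninges 7 were higher and 1 lower (median 0.12 ± 0.045). The higher genes were led by Dcn, Col1a1, Col5a1 and Postn at 0.29 to 0.43. Twist1 was the lower gene, at -0.28 ± 0.20. Means were above 0 in 11 of the 15 genes. Foxc2, Prrx1 and Foxd1 also lay below 0, at -0.097, -0.063 and -0.049. Of 9 red cell genes 5 were higher (median 0.15 ± 0.012), led by Hba-x, Hba-a1, Alas2 and Hba-a2 at 0.19 to 0.29. Of 7 measured skeletal muscle genes 1 was higher, Myl1 at 0.15 ± 0.032 (median 0.12 ± 0.068), and of 4 measured genes of peripheral ganglia and placodes 0 passed in either direction (median -0.0064 ± 0.027). With one orientation turned the list medians would be -0.00084 for neurons, 0.0035 for lens and eye, 0.0031 for mesenchyme and meninges, -0.012 for red cells, 0.018 for muscle and 0.044 for telencephalon. The part of these cell types in the receptor values was not tested. In pooled tissue fewer cells of a type and less RNA per cell cannot be told apart.

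**Figure D5:**
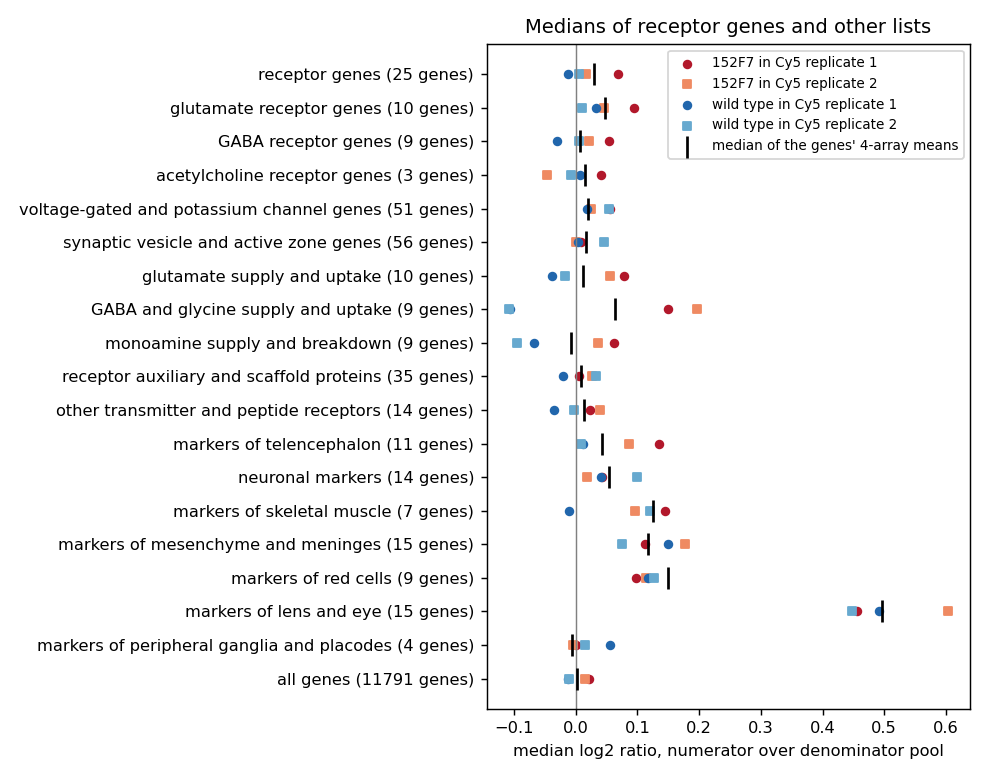
Median log2 ratio (horizontal axis) of the receptor genes, of gene groups set beside them and of marker lists (vertical axis, with the number of measured genes). Points are the medians on the 4 arrays and black bars the median of the genes' means. The receptor genes lie at 0.030, near all genes at 0.0021, and the lens and eye markers at 0.50.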

How the data were processed

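The authors deposited a table with 44290 spots and 1 log ratio of both channels for each array. The deposited ratios were read as log2, with sizes up to 5.76, although no source states the base. What scanner software, background correction, normalization, numerator or filter made them is not given in the sources used here. Intensities were not used. The 4 arrays repeat 1 RNA pool per genotype, so they do not measure variation between pools.

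The platform annotation, joined on the spot number, gave gene symbols. Of the 44290 spots 32042 had 1 symbol, 47 had several and were left out, and 12201 had none. All 86 receptor-like symbols were found in the GRCm38.p6 gene table through their Entrez identifiers. For each gene, the 4-array means of its spots were averaged. Over spots with values on all arrays, replicates of one orientation correlated at 0.862 and 0.905 (Pearson) and opposite orientations at -0.661 to -0.596. Over named spots the Spearman correlations of opposite orientations were -0.162 to -0.0878.

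No test was run. The rule named genes past 1.1-fold, the highest and lowest gene of each transmitter, genes whose spots differed by over 0.2 and, from each other list, up to 4 genes past 1.1-fold. Other members and supply genes are named outside this rule, after their values were seen. Replicate numbers and dye orientation came from the titles. The members and lists were chosen with earlier results of these data known. The same code was run on simulated data with known folds. Its checks covered the recovered means and not the share of genes called, rightly or falsely, at 1.1-fold. Python 3.11.15, pandas 2.3.3 and numpy 2.4.6 were used.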

Additional observations from a re-analysis of the deposited data

Results flagged for a closer look

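For 4 of the 25 receptor genes both arrays of one dye orientation lay on one side of 0 and both arrays of the other orientation on the opposite side. Taken as 152F7 in Cy5 less wild type in Cy5, the orientation difference was -0.15 for Chrnb2, -0.11 for Gabra2, -0.12 for Gabra3 and 0.16 for Gabrr1. The means with 152F7 in Cy5 were -0.029 for Chrnb2, -0.045 for Gabra2, -0.054 for Gabra3 and 0.054 for Gabrr1. The means with wild type in Cy5 were 0.12 for Chrnb2, 0.069 for Gabra2, 0.070 for Gabra3 and -0.10 for Gabrr1. These differences were not tested. The same split was seen for 30.8% of all genes. For Gabra2 it held after averaging of its spots and not in each spot.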

How the results depend on the processing

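The median of the 25 genes moved by less than its spread between arrays in every alternative but log10, and was -0.00050 with wild type in Cy5 alone. With one orientation turned, 0 genes were higher and 0 lower (background 4.49% and 2.39%). The glutamate receptor median was then 0.0010, and Grik5 reversed to -0.075. With 152F7 in Cy5 alone 0 were higher and the glutamate median was 0.085. With wild type in Cy5 alone 2 were higher, Gria1 and Grik5, the lower gene was Gabrp in place of Grin2d at -0.12, and the glutamate median was 0.0093. Leaving out each array in turn gave 1 higher in every case and 0 to 2 lower. Without replicate 1 of wild type in Cy5 Grin2d was not counted, and without replicate 2 of 152F7 in Cy5 Gabrp was added. With values on at least 1 array of each orientation 2 were lower (background 1.53%). Without the noisiest 25% of spots 0 were lower, since the Grin2d spot was removed. Read as natural logs, 2 were higher and 2 lower. Read as log10, 4 were higher and 2 lower, with medians of 0.10 for all members, 0.16 for glutamate, 0.052 for acetylcholine and 0.11 for serotonin receptors. A change of log base scales all genes alike. At the looser limit of 0.070 on the log2 scale 3 were higher and 2 lower, and at 1.2-fold and 1.5-fold 0 and 0. The spot nearest to 0, centring of each array and the mean without the sign rule changed neither count. Shares of all genes were counted only for the turned reading, values on at least 1 array per orientation and the other fold limits. The remaining counts here have no background and are not read as changes in the receptor genes. No paired analysis was possible because no test between genotypes exists with 1 pool each.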
